A study of Rattus norvegicus with 12 samples.

Results

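The genes described here carry the symbols of proteins of the cytosolic ribosome and of the mitochondrial ribosome. A symbol does not ensure that the product is part of a ribosome. They were chosen as protein-coding genes whose symbol begins with Rpl or Rps followed by a number (cytosolic), or with Mrpl or Mrps followed by a number (mitochondrial), and whose mean level over all libraries was at least 1 FPKM. Of 33801 genes measured, 157 met the rule: 89 cytosolic rows, 52 of the large and 37 of the small subunit, and 68 mitochondrial genes, 41 of the large and 27 of the small subunit. All 157 passed the filter for testing. Members were selected on their mean FPKM over all libraries, so their levels are a description. Closest to the threshold in the cytosolic class were Rpl10l at 1.04 FPKM, inside, and the Rpl37 row on chromosome 9 at 0.766 FPKM, outside. In the mitochondrial class they were Mrpl47 at 2.14 FPKM and Mrps17 at 0.208 FPKM. In all, 11 cytosolic and 2 mitochondrial rows with a matching symbol fell below the threshold.

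RNA was sequenced from bone around mini-implants set in wild-type (WT) rats where the maxillary first molar stands; no age was given in the labels. The 12 libraries form 4 groups of 3: loaded Nb3, non-loaded Nb3, loaded cpTi and non-loaded cpTi, where Nb3 is the alloy Zr58Cu25Al14Nb3 and cpTi is titanium. Loading lasted 2 weeks, and bone within a diameter of 4 mm was taken. Whether replicates came from separate animals was not stated, so p-values measure the spread between these samples, which may be technical.

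A ribosome joins a small subunit, which reads the messenger RNA, to a large subunit, which forms the peptide bond. Cytosolic ribosomes make nearly all proteins of the cell. Mitochondrial ribosomes make only the few membrane proteins that the mitochondrial genome encodes, all of them parts of oxidative phosphorylation, although their own proteins are encoded in the nucleus. Cells keep the proteins of a ribosome in proportion to each other. In vertebrates the messenger RNAs of cytosolic ribosomal proteins begin with a C followed by a run of pyrimidines (the terminal oligopyrimidine tract), through which mTOR and LARP1 control their translation, a step that RNA levels do not show. Bone marrow, with its dividing blood precursors, and matrix-secreting osteoblasts are both known for a high demand for ribosomes.

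The classes differed in the share of promoters with a pyrimidine run at the start, while CGGAAG was frequent in both. The windows below are from RefSeq on build GRCr8, 5′ to 3′, from 60 bases before to 20 bases after the annotated start, with the longest run of C and T within 20 bases of the start in capitals. They are the 3 most abundant cytosolic members and Rpl29, the cytosolic member called higher in loaded Nb3.
Rps15: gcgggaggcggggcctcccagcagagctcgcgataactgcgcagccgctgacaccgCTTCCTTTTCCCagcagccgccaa
Rps3a: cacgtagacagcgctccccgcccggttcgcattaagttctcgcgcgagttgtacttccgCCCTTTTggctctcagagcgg
Rpl19: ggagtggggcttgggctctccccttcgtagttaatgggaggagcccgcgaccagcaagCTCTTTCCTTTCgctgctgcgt
Rpl29: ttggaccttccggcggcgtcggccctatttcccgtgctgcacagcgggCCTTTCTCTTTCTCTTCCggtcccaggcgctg
Rps15 lies at chr7:10068096-10068175 on the minus strand, Rps3a at chr2:173827023-173827102 on the minus strand, Rpl19 at chr10:83519004-83519083 on the plus strand and Rpl29 at chr8:115947583-115947662 on the plus strand. The run spans the start in each of them and is 12, 7, 12 and 18 bases long, in that order. The paralogs Rpl3 and Rpl3l differ at this position: the run in Rpl3 is 5 bases long, and in Rpl3l, 9 bases long, it begins at base 10 of the transcript.
Rpl3: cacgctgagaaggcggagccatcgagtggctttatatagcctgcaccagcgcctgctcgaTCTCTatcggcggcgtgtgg
Rpl3l: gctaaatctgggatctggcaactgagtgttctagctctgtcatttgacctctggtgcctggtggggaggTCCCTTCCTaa
Rpl3 lies at chr7:113507971-113508050 on the minus strand and Rpl3l at chr10:14258386-14258465 on the plus strand. For the mitochondrial class, the most abundant member Mrpl17 and Mrps27 are shown with matches to TGCGCA and CGGAAG in capitals (either strand). Mrps5 and Mrps31, called lower in loaded Nb3, are shown beside them. Matches to these 2 motifs are not marked in the cytosolic windows above. There Rps15 holds TGCGCA, and Rps3a and Rpl29 hold CGGAAG on the opposite strand.
Mrpl17: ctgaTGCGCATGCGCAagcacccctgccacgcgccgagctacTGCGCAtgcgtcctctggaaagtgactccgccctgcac
Mrps27: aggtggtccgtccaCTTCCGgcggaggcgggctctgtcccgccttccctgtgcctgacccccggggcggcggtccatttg
Mrps5: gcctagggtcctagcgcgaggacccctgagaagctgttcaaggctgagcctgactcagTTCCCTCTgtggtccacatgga
Mrps31: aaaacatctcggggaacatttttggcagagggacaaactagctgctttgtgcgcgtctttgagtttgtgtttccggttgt
Mrpl17 lies at chr1:169575680-169575759 on the minus strand, Mrps27 at chr2:32474144-32474223 on the plus strand, Mrps5 at chr3:135274273-135274352 on the plus strand and Mrps31 at chr16:76324046-76324125 on the minus strand. Mrpl17 carries 3 copies of TGCGCA, the core bound by NRF1, a regulator of nuclear genes for mitochondria. Mrps27 carries 1 CGGAAG, the core bound by GABPA and other ETS factors, on the opposite strand. The capitals in Mrps5 mark a run of 8 pyrimidines across its start, and the Mrps31 window shown holds neither of the 2 motifs. The longer Mrps31 promoter used for the motif counts below does hold CGGAAG, outside the window shown, and does not hold TGCGCA.

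Promoters matched by symbol and chromosome for 54 of 89 cytosolic and 53 of 68 mitochondrial members. A C at the annotated start followed by at least 4 C or T stood in 17 of 54 cytosolic promoters (31.5%), in 2 of 53 mitochondrial ones (3.77%) and in 2.44% of 19005 protein-coding promoters. A C followed by at least 6 C or T anywhere within 20 bases of the start, a definition added after seeing the data, stood in 64.8% of cytosolic, 20.8% of mitochondrial and 17.8% of all promoters. The next 4 motifs were searched on both strands over 250 bases before to 50 bases after the start, and ATGGCGG and CGGAAG can overlap by the letters CGG. CGGAAG was frequent in both classes, at 53.7% of cytosolic and 50.9% of mitochondrial promoters, against 20.6% of all. TGCGCA stood in 16.7%, 28.3% and 9.18%, and ATGGCGG, bound by YY1, in 20.4%, 22.6% and 6.39%. The E-box CACGTG, bound by MYC, stood in 7.41%, 11.3% and 7.27%. TATAAA from 40 to 20 bases before the start was found in 0 cytosolic and 0 mitochondrial promoters, against 1.68% of all. These matches describe letters in a window and show no binding.

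**Figure D1:**
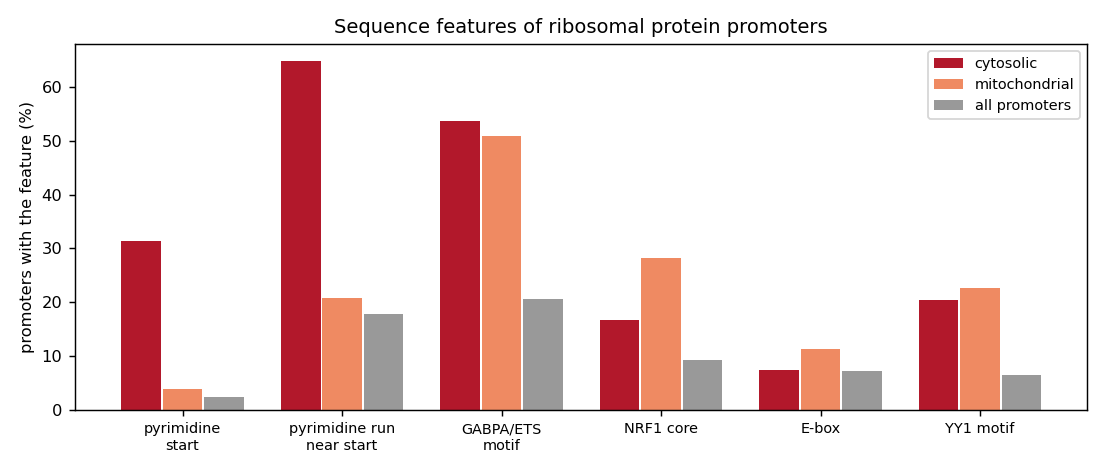
Percentage of promoters (y axis) with each sequence feature (x axis) for cytosolic members (n = 54), mitochondrial members (n = 53) and all protein-coding promoters (n = 19005). The pyrimidine start is more frequent in cytosolic promoters (31.5%) than in mitochondrial ones (3.77%), while the GABPA/ETS motif is at 53.7% and 50.9%.

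The libraries held 12.9 to 22.3 M reads on genes. The loaded Nb3 libraries stood apart: over all tested genes they correlated at 0.731 to 0.866 with the other 9, which correlated at 0.932 to 0.969 among themselves. Transcripts of the mitochondrial genome took 11.3 to 24.3% of reads in loaded Nb3 and 4.31 to 6.86% in the other libraries. Marker genes of several lists moved with this group in the comparison of loaded with non-loaded Nb3: 11 of 11 erythroid, 11 of 11 granulocyte precursor, 10 of 10 B lineage and 12 of 12 dividing-cell markers were called lower, and 9 of 10 fibroblast and ligament and 7 of 9 endothelial markers higher. Over all tested genes 25.2% were called lower and 20.7% higher. Of the other lists, 1 of 10 osteoblast and osteocyte and 2 of 5 skeletal muscle markers were called higher, and 1 of 3 epithelial markers lower. Summed erythroid markers were 3.5 to 21.7 FPKM in loaded Nb3 and 1243 to 2620 FPKM in the other libraries. Osteoblast and osteocyte markers were present in every library, with sums of 3552 to 18691 FPKM. The sums were higher in each loaded cpTi library than in any non-loaded cpTi library, and they overlapped between the Nb3 groups. In loaded against non-loaded cpTi the median marker differed by 1.14 log2 units, and in Nb3 by 0.70. In cpTi 0 of 10 were called, where 0.00655% of all genes were called and the groups did not overlap for 16.4% of them. The part of this cell makeup in the results below was not tested, and in bulk RNA fewer cells of a type and less RNA per cell cannot be told apart.

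FPKM counts fragments per kilobase of gene over a divisor for each library, and so compares levels between genes per length. That divisor, read back from the values, differed from the library's reads on genes: it was 18.1 M for loaded Nb3 replicate 2, which had 22.3 M reads, and 17.1 M for non-loaded Nb3 replicate 2, which had 15.3 M. Cytosolic ribosomal proteins were among the most abundant messages: the median member had 200.2 FPKM and 59 of 89 members exceeded 100 FPKM. Rps15, of the small subunit, led with a mean of 955 FPKM, followed by Rps3a with 734 FPKM and Rpl19 with 698 FPKM. The median mitochondrial member had 12.6 FPKM, and Mrpl17 led with 54.5 FPKM, before Mrpl54 with 47.7 FPKM and Mrpl20 with 39.2 FPKM. Several cytosolic symbols stand on more than 1 row, with 27 members under 11 symbols. For 9 of these symbols at least 84.1% of reads fell on 1 row; Rpl9 put 98.4% on chromosome 14 and Rps20 98.9% on chromosome 5. Reads of Rpl12 and Rpl21 were split, with 61.6% and 62.3% on the row that took more, so values of single copies are uncertain. A further 604 rows of any gene type, whose description contains the words ribosomal protein, lie outside the name rule. They hold 26.9 to 28.9% of the reads that fell on these rows and the members together.

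Summed over members, the cytosolic class differed between group means by at most 2806 FPKM, less than the SD of 6443 FPKM within non-loaded Nb3. The SD was smaller than 2806 FPKM in loaded Nb3 (2620 FPKM), loaded cpTi (2530 FPKM) and non-loaded cpTi (2145 FPKM). The sums were 23803, 25414 and 20290 FPKM in loaded Nb3, against 13438, 26182 and 21469 FPKM in non-loaded Nb3. They were 23324, 18319 and 21463 FPKM in loaded cpTi, against 18597, 20388 and 22869 FPKM in non-loaded cpTi. The lowest and the highest of the 12 libraries were both non-loaded Nb3, and the groups overlapped. Mitochondrial sums averaged 1030 ± 101 FPKM in loaded Nb3, 996 ± 201 in non-loaded Nb3, 993 ± 86.8 in loaded cpTi and 965 ± 30.5 in non-loaded cpTi (SD, n = 3 each). The mitochondrial sum was 4.45 ± 0.167% of the cytosolic sum in loaded Nb3, against 5.03 ± 0.667% in non-loaded Nb3, and 4.74 ± 0.177% in loaded cpTi, against 4.70 ± 0.387% in non-loaded cpTi. The ratio of small to large subunit sums was 0.94 ± 0.02 in loaded Nb3, against 0.90 ± 0.07 in non-loaded Nb3, for the cytosolic class.

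**Figure D2:**
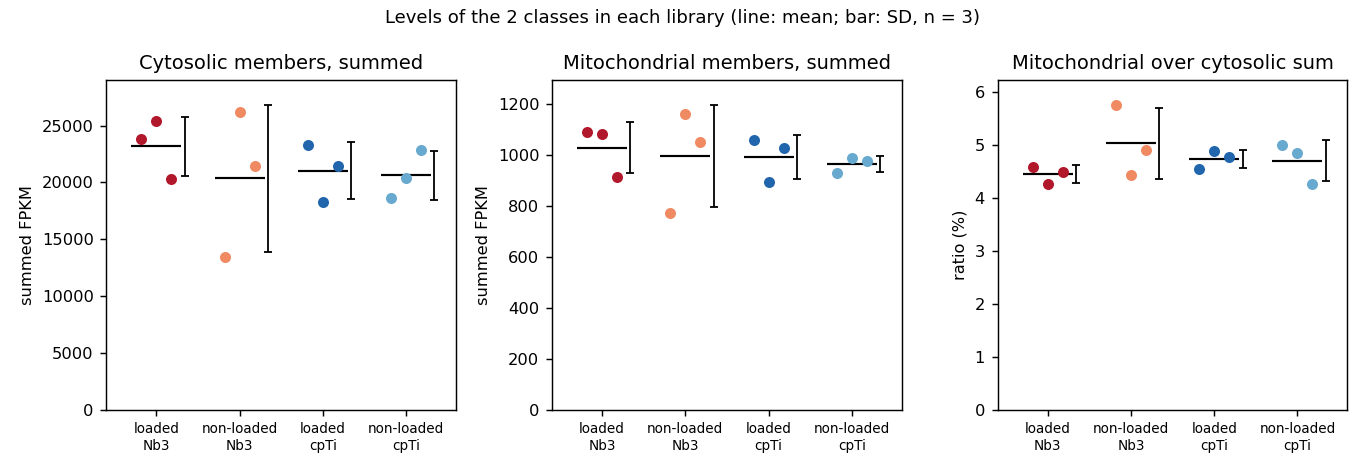
Summed FPKM of the 89 cytosolic and the 68 mitochondrial members and the ratio of the sums in percent (y axes) in each of the 12 libraries by group (x axis); points are libraries, lines means and bars SD. Non-loaded Nb3 holds both the lowest (13438 FPKM) and the highest (26182 FPKM) cytosolic sum.

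Members of a class moved together from library to library. The median cytosolic member correlated at 0.89 with the rest of its class over the 12 libraries, and 66 of 89 exceeded 0.8. Rpl24, of the large subunit, followed the class most closely at 0.99, and Rpl3l did not follow it, at -0.07. Mitochondrial members were looser, with a median of 0.62, from -0.15 for Mrpl47 to 0.92 for Mrpl20. The median deviations of the 2 classes correlated at 0.967 over the libraries. These correlations share library and depth and are given as a description. Median spread within groups was 0.332 log2 units for cytosolic members, 0.219 for mitochondrial members and 0.251 for all tested genes. Across 942 other protein-coding genes shorter than 1000 bases, a set added after seeing the data, the library medians ran from -0.31 in loaded Nb3 replicate 3 to 0.14 in non-loaded Nb3 replicate 2 (log2 deviation), and non-loaded Nb3 replicate 1 was at -0.18. The part of gene length in the class deviations was not tested.

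Few ribosomal protein genes were called for loading around Nb3, where 45.8% of all 15268 tested genes were called (limma, Benjamini-Hochberg adjusted p under 0.05). The median half-width of the confidence interval was 0.569 log2 units for cytosolic members, 0.393 for mitochondrial members and 0.450 for all genes. A member that was not called is therefore not shown to be unchanged. Of 89 cytosolic members 1 was called higher and 1 lower (2.25%), and of 68 mitochondrial members 3 higher and 7 lower (14.7%), against 20.7% of all genes higher and 25.2% lower. Members that changed by at least 1 log2 unit and were called numbered 1, Rpl3l, against 22.8% of all genes, and the groups did not overlap for 2 cytosolic and 9 mitochondrial members, against 50.8% of all genes. In all, 142 of 157 members (90.4%) lay within 0.5 log2 units of 0, against 49.1% of all genes. The median difference of log2(FPKM + 1) was 0.18 for cytosolic members, 0.04 for mitochondrial members and -0.02 for all genes. The sign of the class medians is not settled: without non-loaded Nb3 replicate 1 they were -0.10 and -0.08, and scaled by total reads 0.01 and -0.12, with all genes at -0.17. The split of mitochondrial calls depended on scaling too. It was 0 higher and 11 lower when scaled by total reads and 8 higher and 3 lower after quantile normalization. Of all 15268 genes, 2266 were called higher and 4667 lower when scaled by total reads, and 3573 higher and 3337 lower after quantile normalization. Cytosolic calls numbered 9 without non-loaded Nb3 replicate 2, and 1 without loaded Nb3 replicate 2 or 3, non-loaded Nb3 replicate 3, loaded cpTi replicate 3 or non-loaded cpTi replicate 2. Mitochondrial calls numbered 4 without non-loaded Nb3 replicate 3, 5 without loaded Nb3 replicate 2, and 6 without loaded Nb3 replicate 1 or loaded cpTi replicate 1 or 3.

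**Figure D3:**
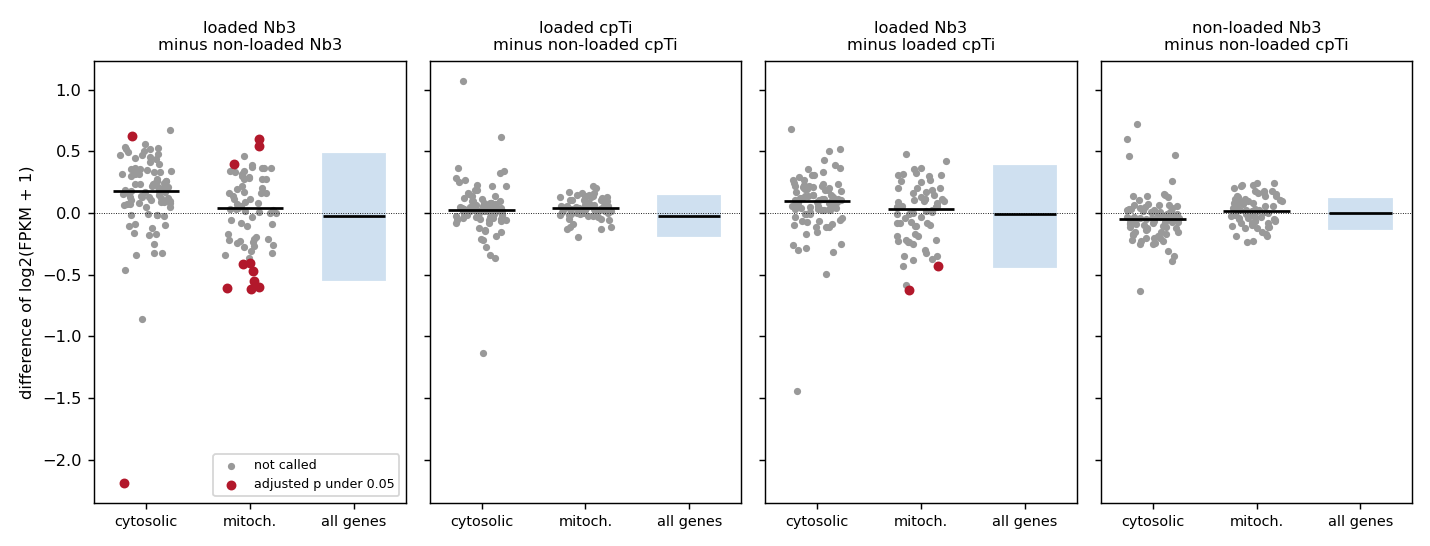
Difference of log2(FPKM + 1) (y axis) in the 4 comparisons for each cytosolic and mitochondrial member (points, red where called at adjusted p under 0.05; horizontal lines are medians) and for all 15268 tested genes (box from the lower to the upper quartile). In loaded minus non-loaded Nb3, 142 of 157 members lie within 0.5 of 0, and Rpl3l is the lowest point at -2.19.

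In the large cytosolic subunit, Rpl29, known in human also as a heparin-binding protein, was higher in loaded Nb3. It had 427, 414 and 379 FPKM in loaded Nb3, against 199.8, 333 and 275 FPKM in non-loaded Nb3. The groups did not overlap, and the difference was 0.62 ± 0.22 (SE, adjusted p = 0.036 with limma). The call was lost under 11 of 21 alternatives, among them the removal of any 1 loaded Nb3 library, with limma adjusted p from 0.014 to 0.123. None of the 37 small-subunit members was called, at 1 with an unadjusted p under 0.05. Rps15 had 1207, 1135 and 1077 FPKM in loaded Nb3, against 499, 1167 and 1002 FPKM in non-loaded Nb3, and the groups overlapped.

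Rpl3l, the paralog that replaces Rpl3 in ribosomes of skeletal muscle and heart in mouse and human, was the member with the largest difference. It had 2.61, 5.93 and 0.437 FPKM in loaded Nb3, against 14.3, 21.1 and 9.0 FPKM in non-loaded Nb3. All 3 loaded libraries were below all 3 non-loaded ones, and the difference was -2.19 ± 0.52 (SE, adjusted p = 0.0055 with limma), called under all 21 alternatives, from -2.87 to -1.59. In loaded cpTi it had 5.79, 5.99 and 14.2 FPKM, against 16.3, 23.9 and 16.8 FPKM in non-loaded cpTi, a difference of -1.14 ± 0.52 that was not called (adjusted p = 0.723 with limma). Rpl3 itself, which forms part of the peptidyl transferase region, averaged 386 ± 33.8 FPKM in loaded Nb3 and 379 ± 79.4 FPKM in non-loaded Nb3 (SD, n = 3 each), a difference of 0.05 ± 0.19.

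Markers of skeletal muscle were measured beside Rpl3l. Acta1, skeletal muscle actin, had 74.9, 328 and 0 FPKM in loaded Nb3, and at most 8.32 FPKM in the other 9 libraries. The 8 measured muscle markers summed to 6.5 to 833 FPKM in loaded Nb3 and 9.5 to 37.9 FPKM elsewhere. Acta1 was highest in loaded Nb3, where Rpl3l was lowest, but within loaded Nb3 the libraries stood in the same order for both genes. The part of muscle RNA in the Rpl3l values was not tested. In the deposited positions Rpl3l lies at chr10:13753886-13764457 on the plus strand, and Msrb1, a methionine sulfoxide reductase, begins 425 bases beyond its end on the same strand. Msrb1 had 53.7, 72.5 and 46.4 FPKM in loaded Nb3, against 124, 144 and 208 FPKM in non-loaded Nb3, a difference of -1.44 ± 0.22 (SE, adjusted p = 0.000357 with limma). Whether reads of one gene were counted on the other was not tested.

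**Figure D4:**
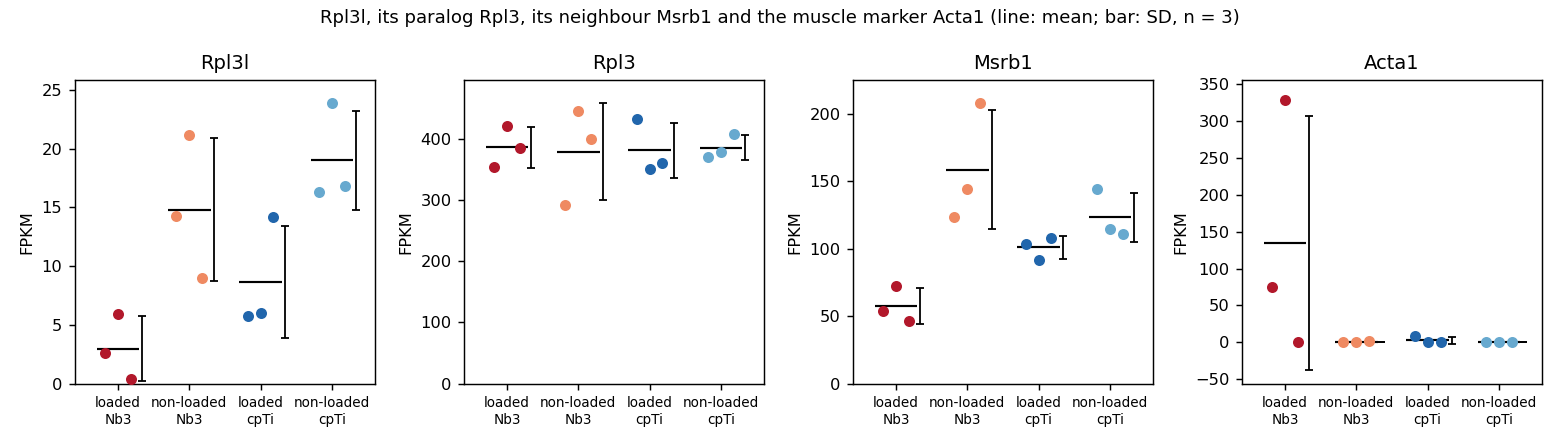
FPKM (y axes) of Rpl3l, its paralog Rpl3, its neighbour Msrb1 and the muscle marker Acta1 in each library by group (x axis); points are libraries, lines means and bars SD (n = 3). Rpl3l is 0.437 to 5.93 FPKM in loaded Nb3 and 9.0 to 21.1 FPKM in non-loaded Nb3, and Acta1 is 0 to 328 FPKM in loaded Nb3.

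The other paralogs of cytosolic ribosomal proteins were not called, though 3 of them were under some alternatives. Rpl22l1 and Rps27l were called higher without non-loaded Nb3 replicate 2 (limma adjusted p = 0.0075 and 0.027), and Rps27l also after quantile normalization (0.037). Rpl7l1 was called lower when scaled by total reads (limma adjusted p = 0.035) and without non-loaded Nb3 replicate 1 (0.021). Rpl22l1, the paralog of Rpl22, had 34.9, 38.8 and 35.5 FPKM in loaded Nb3, against 15.8, 36.9 and 25.9 FPKM in non-loaded Nb3, a difference of 0.53 ± 0.23 (adjusted p = 0.084 with limma). Rpl22 differed by 0.20 ± 0.22. Rps27l, a paralog of Rps27 induced by p53 in human cells, differed by 0.51 ± 0.22 and Rps27 by 0.25 ± 0.34. Rpl7l1, a relative of Rpl7 that acts in ribosome assembly, had 35.1, 32.3 and 39.1 FPKM in loaded Nb3, against 37.3, 51.8 and 45.9 FPKM in non-loaded Nb3 (-0.33 ± 0.14, adjusted p = 0.080 with limma). Rpl10l, known from testis, had 1.49, 1.7 and 0.379 FPKM in loaded Nb3, against 1.05, 0.928 and 1.85 FPKM in non-loaded Nb3. The main Rpl39 row averaged 117 ± 23.7 FPKM in loaded Nb3 and 89.3 ± 35.3 FPKM in non-loaded Nb3.

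In the large mitochondrial subunit, 2 members were called higher and 2 lower in loaded Nb3. Mrpl41, a protein specific to mitochondrial ribosomes, had 8.06, 8.77 and 7.17 FPKM in loaded Nb3, against 3.47, 6.79 and 4.93 FPKM in non-loaded Nb3 (0.60 ± 0.19, adjusted p = 0.024 with limma). Mrpl17 averaged 66.1 ± 9.41 FPKM in loaded Nb3 and 50.1 ± 8.16 FPKM in non-loaded Nb3 (SD, n = 3 each), and the libraries overlapped. Mrpl45, which lies near the exit tunnel and helps to hold the ribosome to the inner membrane, had 13.5, 10.4 and 9.89 FPKM in loaded Nb3, against 13.9, 17.9 and 21.2 FPKM in non-loaded Nb3 (-0.60 ± 0.15, adjusted p = 0.0084 with limma). Mrpl21 differed by -0.47 ± 0.17. In the deposited positions Mrpl41 overlaps Pnpla7, and Mrpl21 overlaps Ighmbp2; the strand setting of the counting was not given in the sources used here, and reads of overlapping genes cannot be told apart.

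In the small mitochondrial subunit, 1 member was called higher and 5 lower, of 27. Mrps31, specific to mitochondrial ribosomes, had 4.61, 3.52 and 4.60 FPKM in loaded Nb3, against 6.64, 6.94 and 7.24 FPKM in non-loaded Nb3. It was lower in every loaded library, by -0.61 ± 0.13 (SE, adjusted p = 0.0026 with limma), and the call held under all 21 alternatives. Mrps5, a protein at the entry of the messenger RNA channel, had 9.20, 8.71 and 8.88 FPKM in loaded Nb3, against 12.7, 13.1 and 11.1 FPKM in non-loaded Nb3 (-0.42 ± 0.11, adjusted p = 0.012 with limma). Mrps27, an RNA-binding member of the pentatricopeptide repeat family, had 7.22, 4.76 and 5.15 FPKM in loaded Nb3, against 6.79, 10.4 and 9.33 FPKM in non-loaded Nb3, and the libraries overlapped.

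Mrps12, which lies at the decoding centre, averaged 16.3 ± 5.38 FPKM in loaded Nb3 and 24.7 ± 4.44 FPKM in non-loaded Nb3 (SD, n = 3 each). Mrps22, which overlaps another gene on the opposite strand, averaged 8.28 ± 1.10 FPKM in loaded Nb3 and 11.2 ± 0.40 FPKM in non-loaded Nb3, and its call was lost under 15 of the 21 alternatives. Mrps16, conserved from bacteria, went the other way, with 11.4, 10.8 and 9.30 FPKM in loaded Nb3, against 4.92, 8.71 and 7.56 FPKM in non-loaded Nb3 (0.54 ± 0.17, adjusted p = 0.025 with limma). The calls of Mrpl17, Mrps12 and Mrpl21 were lost under 15, 12 and 12 of the 21 alternatives, in that order, those of Mrps27 and Mrpl41 under 6 each, that of Mrps16 under 5 and that of Mrpl45 under 1. Of the 3 mitochondrial members called higher, Mrpl41, Mrps16 and Mrpl17, each lost its call without non-loaded Nb3 replicate 1 (differences of 0.40, 0.33 and 0.27).

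**Figure D5:**
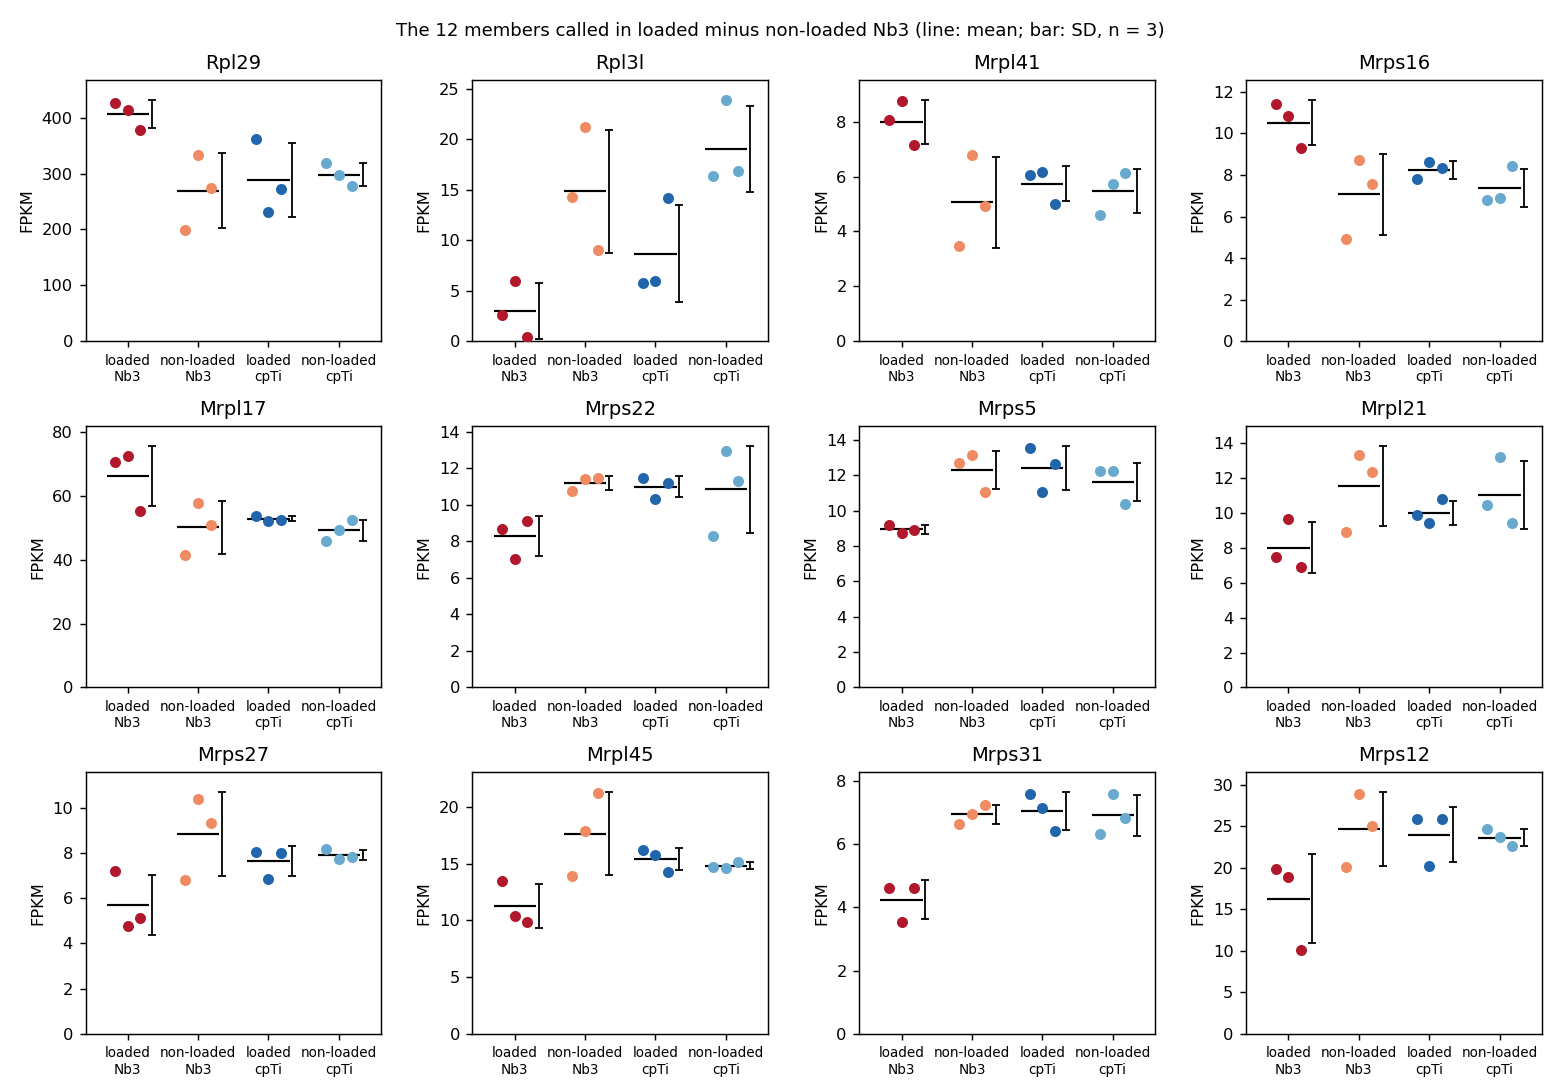
FPKM (y axes) in each library by group (x axis) of the 12 members called in loaded minus non-loaded Nb3; points are libraries, lines means and bars SD (n = 3). Mrps31 is 3.52 to 4.61 FPKM in loaded Nb3 and 6.31 to 7.59 FPKM in the other 9 libraries.

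Loading around cpTi called none of the 157 members, where 0.00655% of all genes were called. At an unadjusted p under 0.05 it was 1 cytosolic and 0 mitochondrial members, against 6.96% of all genes, and limma-voom on recovered reads also called 0 and 0. The medians were 0.02 for cytosolic members, 0.04 for mitochondrial members and -0.03 for all genes. Of the mitochondrial class, Mrpl44 had the smallest p, with 7.76, 6.88 and 8.53 FPKM in loaded cpTi, against 6.28, 6.35 and 6.80 FPKM in non-loaded cpTi (0.22 ± 0.16, adjusted p = 0.824 with limma).

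Loaded Nb3 against loaded cpTi called 0 cytosolic members and 2 mitochondrial members lower, where 33.6% of all genes were called and 18.9% were lower. This comparison shares the loaded Nb3 libraries with the one above. At an unadjusted p under 0.05 it was 2 cytosolic and 7 mitochondrial members, against 44.4% of all genes, and limma-voom called 0 cytosolic and 2 mitochondrial members. No member was called with a difference of at least 1 log2 unit, against 14.9% of all genes. The groups did not overlap for 7 cytosolic and 11 mitochondrial members, against 46.6% of all genes. Mrps31 had 4.61, 3.52 and 4.60 FPKM in loaded Nb3, against 7.58, 7.14 and 6.41 FPKM in loaded cpTi (-0.62 ± 0.13, adjusted p = 0.0037 with limma). Mrps5 had 9.20, 8.71 and 8.88 FPKM in loaded Nb3, against 13.5, 11.1 and 12.6 FPKM in loaded cpTi (-0.43 ± 0.11, adjusted p = 0.015 with limma); its call was lost without loaded cpTi replicate 1 or 3. Rpl3l differed by -1.44 ± 0.52 (adjusted p = 0.053 with limma) and Rpl29 by 0.52 ± 0.22 (adjusted p = 0.090 with limma). Mitochondrial calls numbered 5 when scaled by total reads, 5 without loaded Nb3 replicate 1, 4 without loaded Nb3 replicate 3 or non-loaded Nb3 replicate 1, and 1 without loaded cpTi replicate 1 or 3. Cytosolic calls numbered 1 without loaded Nb3 replicate 2 or non-loaded Nb3 replicate 1.

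Non-loaded Nb3 against non-loaded cpTi called 0 members of either class, and 0% of all genes. No member had an unadjusted p under 0.05, against 3.08% of all genes, and limma-voom called 0 and 0. The groups did not overlap for 1 cytosolic and 2 mitochondrial members, against 7.29% of all genes. Mrps31 averaged 6.94 ± 0.30 FPKM in non-loaded Nb3 and 6.91 ± 0.65 FPKM in non-loaded cpTi (SD, n = 3 each), and the interval of its difference ran from -0.27 to 0.29. The effect of loading in Nb3 minus that in cpTi was called for 2 mitochondrial members, Mrps31 and Mrps5, and for 0 cytosolic members where 20.2% of all genes were called, 8.42% higher and 11.8% lower. At an unadjusted p under 0.05 it was 1 cytosolic and 3 mitochondrial members, against 34% of all genes, and limma-voom called 0 cytosolic and 1 mitochondrial member. For Mrps31 it was -0.63 ± 0.18 (adjusted p = 0.030 with limma), and for Mrps5 -0.50 ± 0.16 (adjusted p = 0.048 with limma). The first call was lost under 8 and the second under 17 of 21 alternatives. For this term the fit of the compared groups alone takes all 4 groups, so it repeats the main fit. No mitochondrial member was called without non-loaded Nb3 replicate 2 or 3, loaded cpTi replicate 1 or non-loaded cpTi replicate 1 or 3, and 1 was called without loaded Nb3 replicate 2 or 3, loaded cpTi replicate 2 or 3 or non-loaded cpTi replicate 2.

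Subunits outside the name rule were counted as well. The 6 cytosolic ones tested were Rplp0, Rplp1, Rplp2, Rpsa, Fau and Rack1, and the 5 mitochondrial ones Dap3, Gadd45gip1, Chchd1, Ptcd3 and Aurkaip1. In loaded against non-loaded Nb3 0 of them were called, against 45.8% of all genes, with medians of 0.24 and 0.21. Over the alternatives up to 1 cytosolic one was called higher and up to 1 lower. Of the mitochondrial ones, up to 1 was called higher and 0 lower. Rplp0, of the stalk that recruits translation factors, averaged 1179 ± 146 FPKM in loaded Nb3 and 1041 ± 271 FPKM in non-loaded Nb3 (SD, n = 3 each).

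Genes that work with the ribosome were counted in loaded against non-loaded Nb3, where 20.7% of all genes were called higher and 25.2% lower. All genes called lower numbered 3840 in the main fit and 3121 to 4667 over the alternatives, with 4667 when scaled by total reads. Of 30 cytosolic translation factors, 1 rose and 6 fell (20%), with a median of -0.11, and 4 to 11 fell over the alternatives (11 when scaled by total reads). Pabpc1, which binds poly(A) tails, averaged 235 ± 68.3 FPKM in loaded Nb3 and 525 ± 69.7 FPKM in non-loaded Nb3 (-1.18 ± 0.24, adjusted p = 0.0023 with limma). Eif3d and Eif3c, of the initiation complex that joins the small subunit to mRNA, fell by 0.69 and 0.58 on the log2 scale, and Eif4a2, a helicase of initiation, rose by 0.42.

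Of 48 ribosome biogenesis genes, 0 rose and 9 fell (18.8%), a smaller share than the 25.2% of all genes called lower, with a median of -0.22. Over the alternatives 6 to 16 fell, with 16 when scaled by total reads and 14 without non-loaded Nb3 replicate 1. Of all 15268 genes, 4667 and 3592 were called lower in these settings, in that order, against 3840 in the main fit. Heatr1, needed for early pre-rRNA processing, averaged 3.86 ± 1.08 FPKM in loaded Nb3 and 7.95 ± 0.746 FPKM in non-loaded Nb3 (-0.90 ± 0.18, adjusted p = 0.0017 with limma). Nop58, a core protein of box C/D snoRNPs, fell by 0.67 and Tsr1, of small subunit maturation, by 0.61. Of 30 mitochondrial translation and assembly genes, 1 rose and 5 fell (16.7%). Over the alternatives 2 to 10 fell, with 10 when scaled by total reads, 8 without non-loaded Nb3 replicate 1, 3 without loaded Nb3 replicate 3 or non-loaded Nb3 replicate 2, and 2 without non-loaded Nb3 replicate 3. Malsu1, which binds the large mitochondrial subunit during assembly, averaged 14.6 ± 1.77 FPKM in loaded Nb3 and 6.29 ± 0.365 FPKM in non-loaded Nb3 (1.09 ± 0.17, adjusted p = 0.00038 with limma). Mettl15, a methyltransferase of mitochondrial small-subunit rRNA, fell by 0.62, and Ddx28, a helicase of mitochondrial ribosome assembly, by 0.53. Of 14 mitochondrial aminoacyl-tRNA synthetases, 0 rose and 1 fell, Fars2, by 0.41, and 0 to 4 fell over the alternatives (2 without non-loaded Nb3 replicate 1 or non-loaded cpTi replicate 3, and 0 without loaded Nb3 replicate 3 or non-loaded Nb3 replicate 2).

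Of 16 regulators of ribosomal protein expression, 0 rose and 8 fell (50%), with a median of -0.36, and 6 to 9 fell over the alternatives. Larp1, which holds pyrimidine-start mRNAs, averaged 14.8 ± 0.393 FPKM in loaded Nb3 and 36 ± 6.09 FPKM in non-loaded Nb3 (-1.21 ± 0.14, adjusted p = 0.00012 with limma). Eif4ebp2, an mTOR target that restrains initiation, fell by 1.17 and Nrf1, the factor that binds TGCGCA, by 1.0. In loaded Nb3 against loaded cpTi 0 regulators rose and 9 fell, 0 biogenesis genes rose and 10 fell, and 0 translation factors rose and 6 fell, where 14.7% of all genes were called higher and 18.9% lower. Over the alternatives 6 to 11 regulators, 6 to 18 biogenesis genes and 2 to 11 translation factors fell there. All genes called lower there numbered 2884 in the main fit and 2076 to 3671 over the alternatives. Biogenesis genes that fell numbered 6 without loaded Nb3 replicate 3 or loaded cpTi replicate 1 or 3, and translation factors 2 without loaded cpTi replicate 1. In the loading comparison in cpTi and in the comparison of non-loaded groups 0 genes of these lists were called. Marker genes of dividing cells, called lower 12 of 12 in loaded against non-loaded Nb3, moved with the genes that fell; their part was not tested.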

How the data were processed

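The authors deposited 1 table of FPKM for 33801 genes with gene lengths and positions. Per the submitters' processing notes, DESeq2 1.20.0, featureCounts 1.5.0-p3, HISAT2 2.0.5, fastp and CASAVA 1.8 were used, with no role given; the build, annotation and strand setting were not given in the sources used here. RNA was polyadenylated, per the labels. Deposited FPKM times length, divided by a step estimated for each library (the value of 1 read), came in whole reads for 100% of values within 0.01 read. Genes with at least 1 FPKM in at least 3 libraries (15268) were fitted as log2(FPKM + 1) in limma 3.58.1 (R 4.3.3; trend and robust empirical Bayes, 4 group means, 12 libraries, 8 residual degrees of freedom), with p-values adjusted by Benjamini-Hochberg over all tested genes and called at 0.05. The fit was tested on simulated data. Log2 differences understate changes of low genes. The 21 alternatives leave out each of the 12 libraries or change 1 other of 9 settings. Named genes were the called members of largest difference in each class (up to 5 each way; where none was called, the 2 of smallest p), the 3 most abundant, those at the threshold, and paralog pairs; of each other list, up to 3 called genes of largest difference. Mrps22 and other named genes outside this rule were chosen after their values were seen. Members and lists were chosen with earlier results of these data known. Protein sequences were not analysed here.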

Additional observations from a re-analysis of the deposited data

Results flagged for a closer look

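The interaction term was called for 2 of 68 mitochondrial members (2.94%), both of the small subunit, against 20.2% of all tested genes. The call of Mrps31 was lost under 8 and that of Mrps5 under 17 of 21 alternatives. Mrps31 differed by -0.61 between loaded and non-loaded Nb3 and by 0.03 between loaded and non-loaded cpTi, a difference of effects of -0.63 (adjusted p = 0.030 with limma, 0.029 to 0.079 over the alternatives). Mrps5 differed by -0.42 in Nb3 and by 0.09 in cpTi, a difference of effects of -0.50 (adjusted p = 0.048 with limma, 0.032 to 0.122 over the alternatives). Their shared loaded Nb3 libraries were also those that stood apart in cell type markers, whose part in this was not tested.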

How the results depend on the processing

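Over 21 alternatives the calls of Rpl3l, Mrps31 and Mrps5 between loaded and non-loaded Nb3 held, as did that of Mrps31 between loaded Nb3 and loaded cpTi; the other called members lost their call under at least 1, that of Mrps22 under 15, and no called member's difference changed sign. Cytosolic calls in loaded against non-loaded Nb3 (2) became 1 with no filter, 1 with the compared groups alone and 5 after quantile normalization, and 1 to 9 with 1 library left out. Mitochondrial calls there (10) became 6 with no filter and 2 with the compared groups alone, and 4 to 11 with 1 library left out. Between loaded Nb3 and loaded cpTi, cytosolic calls (0) became 1 with total-read scaling and 1 after quantile normalization (0 to 1 with 1 library left out), and mitochondrial calls (2) 5 with total-read scaling (1 to 5). Mitochondrial interaction calls (2) became 1 with no filter, 1 with limma-voom, 1 without the robust option, 1 when scaled by reads outside the mitochondrial genome and 0 after quantile normalization (0 to 3). With total-read scaling the mitochondrial median was -0.12 for loading in Nb3, -0.13 for loaded Nb3 against loaded cpTi and -0.17 for the interaction. The mitochondrial median between non-loaded groups ran from -0.083 to 0.18 with 1 library left out. The causes were not tested.

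With the replicate number as a block, cytosolic calls in loaded against non-loaded Nb3 were 1, mitochondrial calls 8, and mitochondrial interaction calls 0. Same-numbered libraries correlated at -0.25 to 0.11, on a measure other than the library correlations over all tested genes given above. No library correlated best with its own number in every other group. With so few libraries per group, these values cannot decide whether the numbers pair the samples. Depth limits the low copies: Rpl3l rested on 13 to 620 reads a library.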
